A study of Equus caballus with 2 samples.

Results

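Syndecans and glypicans are the 2 families of cell surface proteoglycans that carry heparan sulfate, the sulfated sugar chain on which many growth factors and matrix proteins are held at the cell. A syndecan spans the membrane and has a short cytoplasmic tail, whereas a glypican is tethered to the outer leaflet by a glycosylphosphatidylinositol (GPI) anchor. THY1 (CD90) is a small GPI-anchored protein of the immunoglobulin family that serves as a surface marker of fibroblasts and other mesenchymal cells and binds integrins. In fibroblasts these molecules sit where growth factor receptors, integrins and the matrix meet.

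The genes described are the syndecans *SDC1*, *SDC2*, *SDC3* and *SDC4*, the glypicans *GPC1*, *GPC3*, *GPC4* and *GPC6*, and *THY1*. They were taken from the deposited counts by gene symbol, and 8 of the 9 were found among the 21426 genes listed. *SDC3*, the syndecan best known from the nervous system and skeletal muscle, was not matched by symbol and is not analysed here. This does not show that it was not counted, since 5196 of the genes listed carry no symbol. The remaining glypicans, *GPC2* and *GPC5*, were not among the chosen genes and are given below with the related genes.

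The counts came from 2 libraries of equine endometrial fibroblasts, both cultured on collagen-coated hydrogels with reduced serum and then for 24 h in medium with 0.1% BSA in place of serum. The control received no supplement, and the other group received 10 ng/ml human recombinant TGF-β1, the growth factor that drives fibrosis in many tissues. Each library held the pooled cells of 4 mares, grown and passaged from abattoir endometria with no or mild fibrosis, harvested with trypsin and loaded as 1 droplet sample. With 1 library per group there is no test, no p-value is given, and the treatment and the library cannot be told apart.

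After the study's filters (at least 20000 unique molecular identifiers (UMIs), at least 3500 genes and under 4% mitochondrial UMIs per cell), 3865 of 4384 control barcodes and 4513 of 5124 TGF-β1 barcodes were kept, with 210497250 and 219731144 UMIs and medians of 50313 and 43142 UMIs per cell. Only 2 barcodes were shared by the kept cells of both libraries. The label fibroblast was checked against markers: *VIM* and *COL1A1* had UMIs in 100% of kept cells of both libraries, whereas *EPCAM* had 1 and 3 UMIs, *CDH1* 6 and 4, and *PTPRC* 1 and 0 in control and TGF-β1. The epithelial list differed between the libraries, with 6 of its 8 genes found and a summed level of 134 CPM (UMIs per 1000000 UMIs of the kept cells) in control and 12.3 in TGF-β1. The keratin *KRT8* was at 114 CPM in control and 4.48 in TGF-β1, and *KRT7* at 19.3 and 7.04. The summed endothelial markers were at 1.48 and 1.58 CPM, the immune markers at 68.9 and 66.1, mostly *CD68*, and the perivascular markers at 102 and 89.4, mostly *RGS5* and *MYH11*, with *KCNJ8* at 0 UMIs in both. Values with and without *KRT8*-positive cells are therefore given below.

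All levels below are in CPM of a library or of a group of its cells. A transcript captured at its 3′ end gives 1 tag, so levels of different genes were compared without scaling for length. Reads in introns, if counted, would add tags to genes with long introns such as *GPC6*. Orders and shares across genes carry this limit. A ratio is the log2 of the level in TGF-β1 divided by that in control. Every interval is an exact interval at the 95% level that covers counting error only, not the spread between mares or cultures. Intervals of levels and ratios also leave out the spread between cells, so they are too narrow where cells differ, as for *GPC6* below.

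In the TGF-β1 library, *THY1* and *SDC4* were at less than 1/2 of their control level, *SDC2* and *GPC1* were modestly lower, and *GPC6* was modestly higher. *SDC1* and *GPC4* were close to their control level, and *GPC3* was barely detected in either library. By UMIs, with the limit on introns given above, the leading gene of the set differed: *THY1* led in control and *GPC6* in TGF-β1. Of the 7 genes that averaged at least 1 CPM over both libraries, 0 were more than 1.5-fold higher, against 7.64% of all 12116 genes at that level, and 2 were more than 1.5-fold lower, against 9.36%. The same 2 genes, *THY1* and *SDC4*, were also more than 2-fold lower, against 3.46% of all genes, and 0 were more than 2-fold higher, against 3.45%. The median ratio of the 7 was -0.38, and that of all genes was -0.01.

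**Figure D1:**
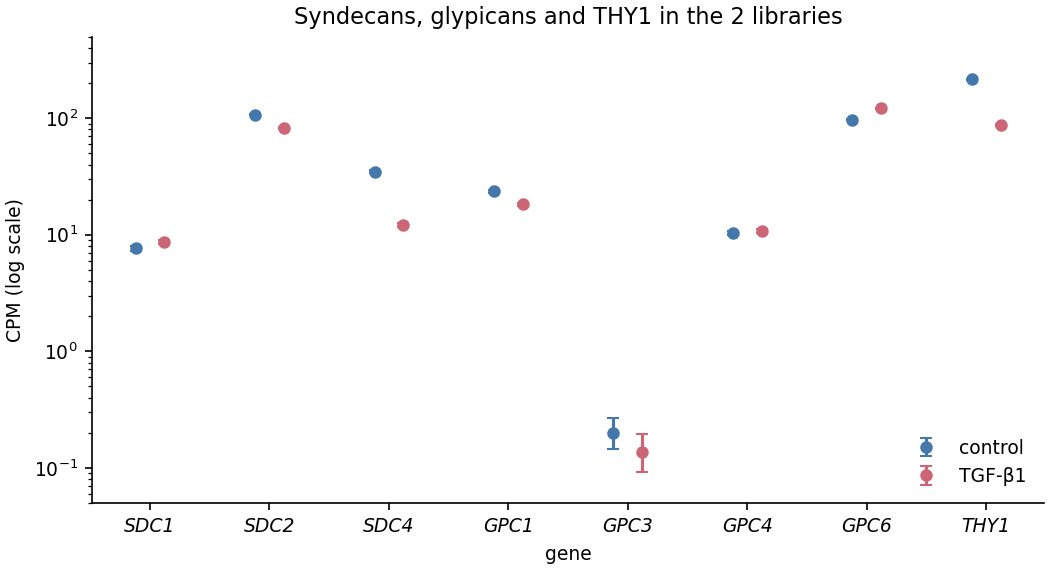
Level of each gene in CPM (log axis) in the control (blue) and TGF-β1 (red) library, with exact Poisson intervals at the 95% level as bars, which are smaller than the points for most genes. *THY1* lay at 216 in control and 87.5 in TGF-β1 and *SDC4* at 34.8 and 12.1, whereas *GPC6* was higher in TGF-β1.

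Among the matched syndecans, *SDC2*, the main syndecan of mesenchymal cells, was the most abundant in both libraries. Its level was 107 CPM in control and 82.2 in TGF-β1, a log2 ratio of -0.38 (-0.41 to -0.35). *SDC4*, the syndecan of focal adhesions, was at 34.8 CPM in control and 12.1 in TGF-β1, from 7320 and 2656 UMIs. It was thus 2.88-fold lower (2.75 to 3.01), with a log2 ratio of -1.52 (-1.59 to -1.46), the largest difference of the set. *SDC1*, best known from epithelia and plasma cells, was detected at a low level of 7.66 CPM in control and 8.67 in TGF-β1, a log2 ratio of 0.18 (0.08 to 0.27).

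Summed over the 3 matched syndecans, 149 CPM were counted in control and 103 in TGF-β1, a log2 ratio of -0.54 (-0.56 to -0.51). The composition of this sum differed as well. *SDC2* made up 71.6% of its UMIs in control and 79.8% in TGF-β1, while *SDC4* made up 23.3% and 11.7%. The share of *SDC1* was 5.13% (4.89 to 5.38) in control and 8.42% (8.06 to 8.79) in TGF-β1. Its part of the sum was thus larger although its own level differed little.

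Among the glypicans, *GPC6* was the most abundant in both libraries, at 97.4 CPM in control and 122 in TGF-β1. It was 1.25-fold higher (1.23 to 1.27), with a log2 ratio of 0.32 (0.30 to 0.35), and was the only gene of the set with a higher level by more than 1.2-fold. *GPC1*, a broadly expressed glypican, was at 23.6 CPM in control and 18.2 in TGF-β1, a log2 ratio of -0.38 (-0.44 to -0.32). *GPC4* was at 10.3 and 10.8 CPM, and the interval of its log2 ratio of 0.07 (-0.02 to 0.15) included 0.

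*GPC3*, a glypican of fetal tissues and liver tumours, had 42 UMIs in control and 30 in TGF-β1, or 0.20 and 0.14 CPM, and its log2 ratio of -0.55 (-1.27 to 0.16) could not be told from 0 at this depth. The glypicans together were at 131 CPM in control and 151 in TGF-β1, a log2 ratio of 0.20 (0.17 to 0.22). *GPC6* made up 74.1% of glypican UMIs in control and 80.7% in TGF-β1, while the share of *GPC1* was 18.0% and 12.1%. By UMIs, the 3 matched syndecans outnumbered the glypicans in control, and the glypicans outnumbered the syndecans in TGF-β1.

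*THY1* was the most abundant gene of the set in control, at 216 CPM, and came after *GPC6* in TGF-β1, at 87.5 CPM. From 45370 and 19217 UMIs it was 2.46-fold lower in TGF-β1 (2.42 to 2.51), with a log2 ratio of -1.30 (-1.33 to -1.28). From high to low, the order in control was *THY1*, *SDC2*, *GPC6*, *SDC4*, *GPC1*, *GPC4*, *SDC1* and *GPC3*. In TGF-β1 it was *GPC6*, *THY1*, *SDC2*, *GPC1*, *SDC4*, *GPC4*, *SDC1* and *GPC3*. No neighbours in either order had overlapping counting intervals, which do not include the spread between cells or cultures.

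To compare cells at equal depth, 20000 UMIs were drawn at random from each cell, which is called thinning here. *THY1* was then detected in 93.8% (93.0 to 94.6) of cells in control and in 71.7% (70.3 to 73.0) in TGF-β1, and without thinning in 98.6% and 89.0%. The distribution of *THY1* lay lower as a whole, with a median of 4 UMIs per thinned control cell and 1 per thinned TGF-β1 cell. Cells with at least 5 *THY1* UMIs made up 38.4% of control cells and 7.18% of TGF-β1 cells.

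*SDC4* was detected in 46.7% (45.1 to 48.3) of thinned control cells and 21.0% (19.8 to 22.2) of thinned TGF-β1 cells, and without thinning in 75.2% and 40.0%. In cells with a UMI of *SDC4* the mean was 1.53 UMIs in control and 1.17 in TGF-β1, so that most of these cells carried a single tag at this depth. The share for *SDC2* was 83.4% in control and 78.4% in TGF-β1, and that for *GPC1* was 36.5% and 29.6%. For *SDC1* it was 14.1% and 15.2%, for *GPC4* 17.2% and 18.2%, and for *GPC3* 0.466% and 0.310%. The libraries hold no cell type that should lack these genes, so the share of cells that free RNA alone would give was not measured.

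*GPC6* was detected in 60.1% (58.5 to 61.6) of thinned control cells and 68.0% (66.7 to 69.4) of thinned TGF-β1 cells. It differed from the other genes in how unevenly it was spread over cells. Its variance was 3.75 times its mean over control cells and 3.67 times over TGF-β1 cells, against 2.66 and 1.88 times for *THY1*, 1.49 and 1.24 times for *SDC2*, and 1.31 and 1.10 times for *SDC4*. No *GPC6* UMI was found in 39.9% of control cells, where a Poisson distribution of the same mean leaves 16.3%, and in 32.0% of TGF-β1 cells, where it leaves 10.1%. At the other end, 11.9% of control cells and 15.9% of TGF-β1 cells had at least 5 *GPC6* UMIs, and the highest cells had 31 and 41.

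**Figure D2:**
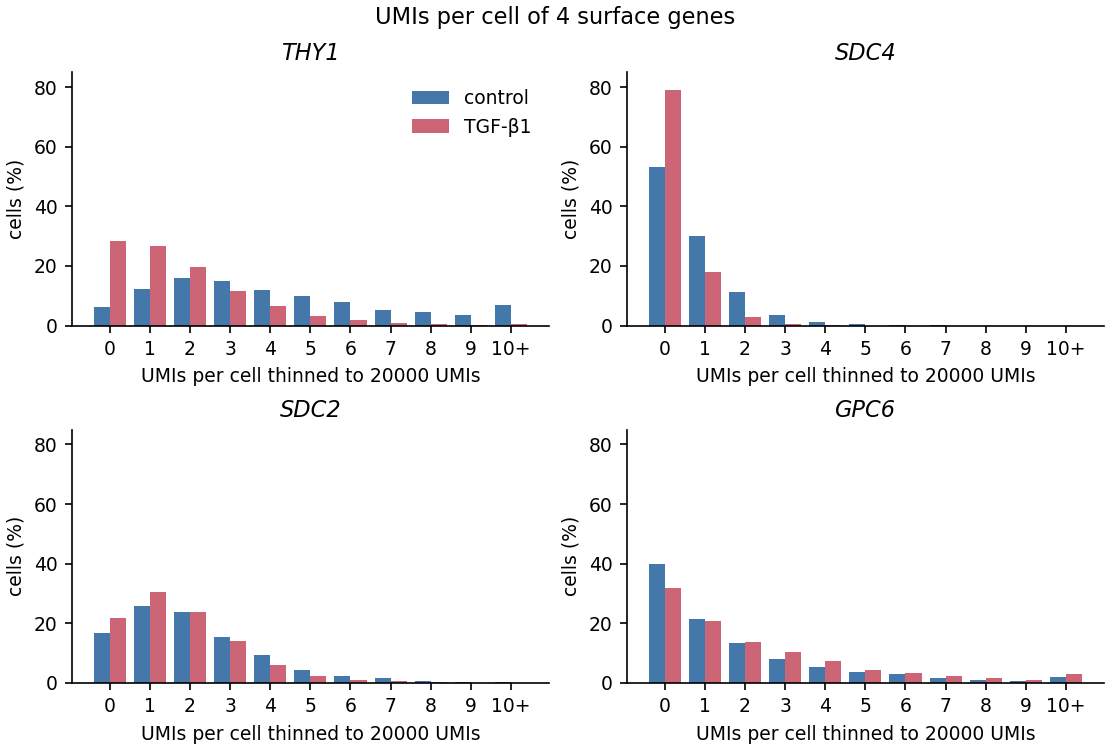
Share of cells (%) by number of UMIs per cell after thinning to 20000 UMIs, for *THY1*, *SDC4*, *SDC2* and *GPC6*, in the control (blue bars) and TGF-β1 (red bars) library, with the last bar holding 10 or more UMIs. *THY1* and *SDC4* had more cells without a UMI in TGF-β1, and *GPC6* had a long tail and many cells without a UMI in both libraries.

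Within a cell, the leading paralog followed the family totals. *SDC2* was the matched syndecan with most UMIs in 64.6% of thinned control cells and 67.5% of thinned TGF-β1 cells, and *SDC4* in 12.3% and 4.30%. Cells without a UMI of any matched syndecan made up 8.05% of control cells and 14.8% of TGF-β1 cells. *GPC6* was the leading chosen glypican in 48.0% and 58.0% of cells, *GPC1* in 16.0% and 10.0%, and *GPC4* in 4.94% and 4.63%. No UMI of the chosen glypicans was found in 20.4% and 17.8% of cells.

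Co-detection asks whether a cell with a UMI of one gene has a UMI of another more or less often than the product of their single shares. For the 7 genes with at least 1 CPM there were 21 pairs per library. The ratio of the observed share to the product was between 0.969 and 1.19 in control and between 0.938 and 1.07 in TGF-β1. With the product taken as fixed, the interval of this ratio included 1 for every one of the 21 pairs in both libraries. The highest ratio was that of *SDC1* and *GPC4* in control, at 1.19 (0.978 to 1.42), and it was 1.00 (0.834 to 1.19) in TGF-β1. That pair in control was at 0.916 after thinning to 10000 UMIs. For a gene found in nearly every cell, such as *THY1* in control, the ratio has little room to differ from 1.

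Seen from one gene of a pair, the share of cells with *THY1* among cells with *SDC4* was 95.1% (94.0 to 96.0) in control, and among cells without *SDC4* it was 92.7% (91.5 to 93.8). In TGF-β1 the corresponding shares of 72.9% (70.0 to 75.7) and 71.4% (69.8 to 72.8) overlapped. *GPC1* was found in 37.7% (36.0 to 39.4) of control cells with *SDC2* and 30.3% (26.8 to 34.0) of those without. These were the 2 pairs of 21 in control whose intervals lay apart, and 0 of 21 did in TGF-β1. Spearman correlations of thinned UMIs across cells, which share a library and are not replicates, were between -0.13 and 0.05 over the pairs in control and between -0.08 and 0.06 in TGF-β1, and the lowest in both was that of *GPC6* and *THY1*.

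**Figure D3:**
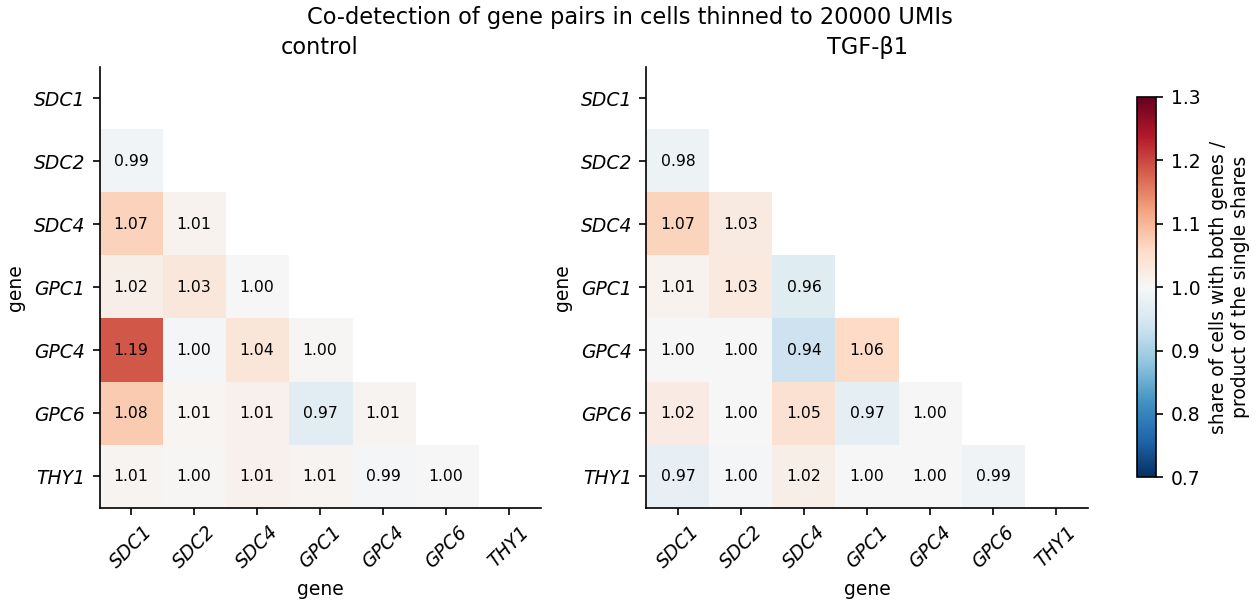
Ratio of the share of cells with UMIs of both genes to the product of the single shares, for each pair of 7 genes (rows and columns), in control (left) and TGF-β1 (right), in cells thinned to 20000 UMIs, with red above 1 and blue below. All values lay between 0.938 and 1.19.

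Cells with UMIs of *SDC2*, *SDC4*, *GPC6* and *THY1* together made up 22.7% (21.4 to 24.1) of thinned control cells and 8.49% (7.69 to 9.34) of thinned TGF-β1 cells. The mean number of the 8 genes found per cell was 3.52 in control and 3.03 in TGF-β1, and 5 control cells and 39 TGF-β1 cells had none. Cells with 5 or more of the genes made up 18.6% in control and 8.77% in TGF-β1. The single shares of *SDC2*, *SDC4*, *GPC1* and *THY1* were themselves lower in TGF-β1, so these values do not show a joint difference beyond them.

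Cells were next grouped by their own *GPC6* count. The level of *THY1* was lower in cells with more *GPC6* in both libraries. In control it was 239 CPM (233 to 244) in the 1544 cells with no *GPC6* UMI, 207 (202 to 212) in the 1862 cells with 1 to 4, and 170 (162 to 178) in the 459 cells with 5 or more. In TGF-β1 it was 95.6 (92.0 to 99.2), 85.5 (82.9 to 88.2) and 68.0 (63.8 to 72.4) CPM. *GPC1* was at 26.8 (24.99 to 28.7), 24.5 (23.0 to 26.2) and 19.5 (16.8 to 22.6) CPM in control, where only the last class lay apart from the others, and at 20.2, 18.0 and 17.8 CPM in TGF-β1, where all intervals overlapped. *SDC2* and *SDC4* were not lower in the cells with 5 or more.

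Depth and mitochondrial share moved with these classes. The median was 48357.5 UMIs per control cell without *GPC6* and 55389 in those with 5 or more, and 40471 and 46912 in TGF-β1, although the classes were formed after thinning. The median mitochondrial share was 1.54% and 1.39% in control, and 1.27% and 1.18% in TGF-β1. Their part in the order of *THY1* was not tested.

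The ratio between the libraries was also computed within each *GPC6* class. For *THY1* the log2 ratio was -1.32 in cells with no *GPC6*, -1.28 in those with 1 to 4 and -1.32 in those with 5 or more. For *SDC4* it was -1.66, -1.47 and -1.51, with overlapping intervals. For *SDC2* it was -0.30 (-0.38 to -0.23), -0.35 and -0.45 (-0.57 to -0.33). For *GPC1* it was -0.41 and -0.45 in the first classes, and -0.13 (-0.41 to 0.15), with an interval that included 0, in cells with 5 or more.

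To see whether the pattern was shared by all fibroblasts, the kept cells of both libraries were clustered again without the 8 genes. This gave 8 clusters with 103 to 762 control cells and 56 to 1061 TGF-β1 cells each. They are named here by number and leading genes and were not matched to the clusters of the study. The study described a cluster made almost wholly of cells from a single mare, and the counts do not tell the mares apart. The clusters here may thus differ in their mix of mares, which was not tested. *SDC4* was lower in TGF-β1 in 8 of 8 clusters, with log2 ratios between -1.98 and -1.38, all more than 2-fold. *THY1* was lower in 8 of 8 clusters, between -1.55 and -0.93, and more than 2-fold in 7. Every interval of these ratios lay below 0.

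*SDC2* was lower in 8 of 8 clusters, between -0.57 and -0.10, with 7 intervals below 0. *GPC1* was lower in 8 of 8, between -0.56 and -0.17, with 6 intervals below 0. *SDC1* was higher in 7 of 8, between -0.76 and 0.93, but only 2 intervals lay above 0, and its lowest value rested on 63 control and 18 TGF-β1 UMIs. *GPC4* was higher in 3 clusters and lower in 5, between -0.26 and 0.28.

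*GPC6* was higher in 7 of 8 clusters, with 6 intervals above 0. The exception was cluster 5, with 156 control and 177 TGF-β1 cells and the leading genes *CFD*, *CRABP2* and *SOD3*, where *GPC6* was at 26.8 CPM in control and 21.0 in TGF-β1. The largest ratio, 1.30 (1.07 to 1.52), was in cluster 7, led by *CA4* and *HBA2*, where the level was 54.7 and 134 CPM and only 56 TGF-β1 cells contributed.

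**Figure D4:**
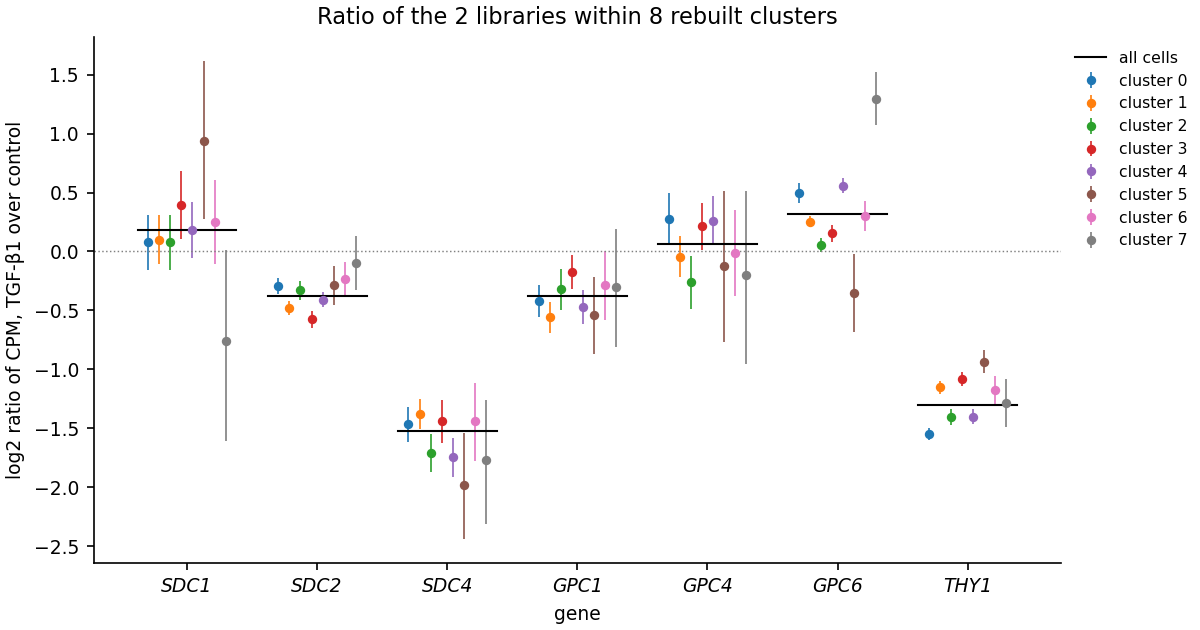
Log2 ratio of CPM, TGF-β1 over control, of 7 genes in each of 8 rebuilt clusters (coloured points, with exact intervals at the 95% level for counting error), the ratio over all kept cells (black lines) and no difference (dotted line at 0). *SDC4* and *THY1* lay below 0 in every cluster, and *GPC6* lay above 0 in 7 of 8.

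Levels also differed between clusters of the same library, most for *GPC6*. Between the cluster with the lowest and the one with the highest level, *GPC6* differed 5.88-fold in control and 8.93-fold in TGF-β1. For *THY1* the range was 2.39-fold and 2.81-fold, for *SDC4* 1.71-fold and 1.85-fold, and for *SDC2* 1.55-fold and 1.39-fold. The *GPC6* range depended on the clustering: with the 6 clusters of resolution 0.3 it was 3.06-fold in control and 2.80-fold in TGF-β1, where *SDC1* had 2.65-fold and 2.55-fold and *THY1* 1.84-fold and 1.53-fold. *GPC6* was highest in cluster 1, led by *COL11A1*, *DLGAP1* and *ICA1L*, at 158 CPM in control and 188 in TGF-β1.

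*THY1* was ordered the other way round. It was highest in cluster 5, at 373 CPM in control and 195 in TGF-β1, where *GPC6* was lowest. In control it was lowest in cluster 1, at 156 CPM, where *GPC6* was highest, and in TGF-β1 it was lowest in clusters 2 and 1, at 69.5 and 70.2 CPM with overlapping intervals. Over the 16 sums of 8 clusters in 2 libraries, with log2(CPM + 1) centred within each library, Pearson's r of *GPC6* and *THY1* was -0.95. The 16 points share libraries, differ in depth and may differ in their mix of mares, so r is a description. It was 0.78 for *GPC4* and *GPC6*, -0.73 for *GPC4* and *THY1*, and -0.63 for *SDC4* and *THY1*. The clusters differed in depth as well: cluster 5 had the lowest median of UMIs per cell in both libraries, 42043 in control and 33762 in TGF-β1, against 53198.5 and 46188 in cluster 1. The part of depth in these orders was not tested.

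**Figure D5:**
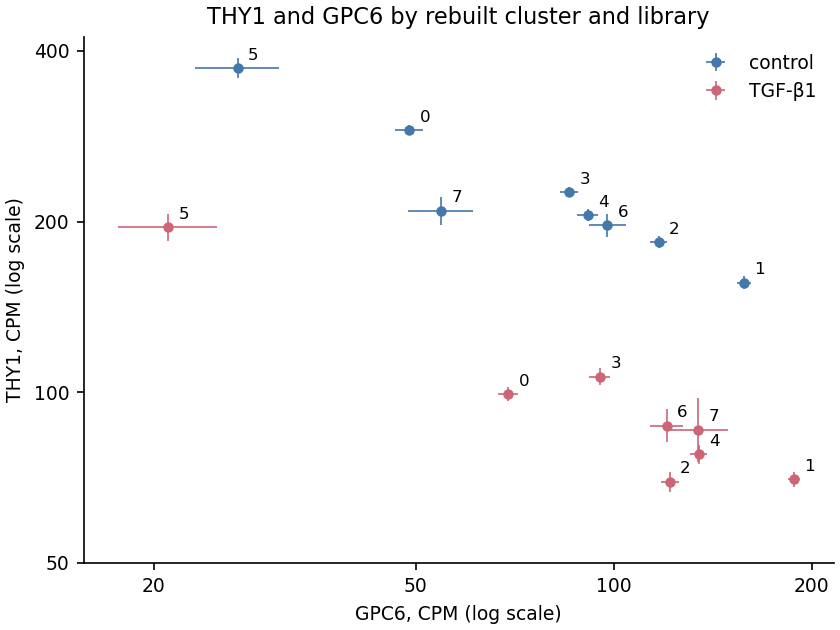
Level of *THY1* (vertical) against *GPC6* (horizontal), both in CPM on log axes, for each rebuilt cluster (number beside the point) in control (blue) and TGF-β1 (red), with exact Poisson intervals at the 95% level. Within each library *THY1* was highest in cluster 5, where *GPC6* was lowest, and every cluster's TGF-β1 point lay below its own control point.

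The genes whose cluster levels ran most nearly parallel to each gene, by the same centred correlation over the 16 points, were *PLEC*, *GRK5* and *HIP1* for *GPC6* (r 0.98 for all), and *DNPEP*, *PSME2* and *TSPAN6* for *THY1* (r 0.96, 0.95 and 0.94). For *SDC4* they were *PTPRD*, *PLPP3* and *CD164* (r 0.87 for all), and for *GPC4* they were *TBC1D31*, *GRAMD4* and *THAP12* (r 0.94, 0.94 and 0.93). *SDC2* ran closest to *C1QTNF1*, *CSRP2* and *SNURF* (r 0.89, 0.76 and 0.76), and *GPC1* to *EFHD1*, *STRA6* and *GGACT* (r 0.89, 0.85 and 0.83). Parallel order over clusters did not mean a like difference between the libraries: *PSME2*, a proteasome activator subunit, was lower in TGF-β1 by a log2 ratio of -1.64, close to *THY1*, whereas *TSPAN6* was at 0.50. *CSRP2*, a LIM domain protein, was at 2.34 and *SDC2* at -0.38.

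Cycling cells stood out for *SDC1*. In each library 95 kept cells had UMIs of at least 3 cycling markers. *SDC1* was at 14.6 CPM (11.8 to 17.7) in these cells and 7.44 (7.07 to 7.82) in the others in control, and at 16.3 (13.3 to 19.8) and 8.44 (8.06 to 8.84) in TGF-β1. The log2 ratio of cycling over other cells was 0.97 (0.66 to 1.26) in control and 0.95 (0.65 to 1.24) in TGF-β1. *SDC1* was also highest in cluster 6, led by *TOP2A*, *DIAPH3* and *PRC1*, at 12.8 and 15.2 CPM. *SDC2* was lower in cycling cells in both libraries, at 74.9 against 108 CPM in control and 69.6 against 82.6 in TGF-β1. *THY1* was lower in cycling cells in control, at 165 against 217 CPM (-0.40, -0.49 to -0.31), and slightly higher in TGF-β1, at 95.5 against 87.2 CPM (0.13, 0.01 to 0.25). Its TGF-β1 over control ratio was thus -0.78 (-0.93 to -0.64) in cycling cells, under 2-fold, and -1.32 (-1.34 to -1.29) in the others, and with 1 library per group this difference was not tested. The median of these cells was 73014 UMIs in control and 56268 in TGF-β1, well above that of all kept cells. The part of depth in these differences was not tested. Over 3 equal classes of all kept cells, from the shallowest to the deepest, *SDC1* was at 8.07, 7.26 and 7.73 CPM in control and 9.23, 8.68 and 8.41 in TGF-β1.

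Cells with a *KRT8* UMI made up 25.5% of control cells and 3.52% of TGF-β1 cells. *GPC6* was lower in them, at 72.9 CPM against 106 without *KRT8* in control and 83.9 against 123 in TGF-β1, a log2 ratio of -0.55 in both libraries. *THY1* was at 223 against 213 CPM in control and 108 against 86.6 in TGF-β1. Without these cells the TGF-β1 over control ratio of *GPC6* was 0.21 instead of 0.32. *SDC4* and *THY1* were still more than 2-fold lower without them.

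*GPC6* also differed by depth. From the shallowest to the deepest class of cells it was at 68.9 and 116 CPM in control, a log2 ratio of 0.75 (0.69 to 0.81), and at 87.8 and 140 CPM in TGF-β1, a ratio of 0.67 (0.62 to 0.72). Within the classes, from the shallowest to the deepest, its TGF-β1 over control ratio was 0.35, 0.37 and 0.27. Whether reads in introns were counted, which would add tags to genes with long introns such as *GPC6*, is not given in the sources used here. The TGF-β1 over control ratio of *SDC4* was between -1.74 and -1.40 over the depth classes, that of *THY1* between -1.38 and -1.22, and that of *SDC2* between -0.48 and -0.22.

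The surface proteoglycans act with enzymes, partners and ligands, and these were followed in lists written from general knowledge. Of the 19 genes that build and edit heparan sulfate and had at least 1 CPM, 5 were more than 1.5-fold higher in TGF-β1 and 1 was lower, with a median ratio of 0.22, against 7.64%, 9.36% and -0.01 over all genes. *EXT1*, a polymerase of the heparan sulfate chain, was at 236 CPM in control and 656 in TGF-β1, a log2 ratio of 1.47. *SULF2* and *SULF1*, which remove 6-O-sulfate groups at the cell surface, were at 24.9 and 53.2 CPM and at 55.8 and 102 CPM, ratios of 1.10 and 0.87. The sum of this list, which includes *SULF1* and *SULF2*, was 534 CPM in control and 1060 in TGF-β1, with most of the difference in *EXT1*. Among carriers of the chain, the 3 matched syndecans were at 149 and 103 CPM and the 4 glypicans at 131 and 151. Other carriers, such as *COL18A1* and *HSPG2*, are given below with the other proteoglycans.

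Of the 11 genes for cytoplasmic partners of syndecans, 1 was more than 1.5-fold higher and 2 were lower, against 7.64% and 9.36% of all genes, with a median of -0.02. *SDCBP* (syntenin), which binds the syndecan tail, was at 274 CPM in control and 158 in TGF-β1, a log2 ratio of -0.79, and *EZR* (ezrin) was at 171 and 85.9 CPM, a ratio of -0.99. The higher gene was *TIAM1*, an exchange factor for the GTPase RAC1, at 0.88 and 4.46 CPM, a ratio of 2.34. *ACTN1*, an actin crosslinker of focal adhesions, was below 1.5-fold, at 317 and 436 CPM, a ratio of 0.46. Among 10 genes for shedding and release of surface proteoglycans, 1 was more than 1.5-fold higher and 1 lower, against 7.64% and 9.36% of all genes, with a median of -0.11. The lower one, the secreted protease *ADAMTS1*, was at 54.1 CPM in control and 18.4 in TGF-β1, and the higher one, the gelatinase *MMP9*, was at 4.07 and 11.7. *MMP2* was at 276 and 367 CPM.

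Glypicans and THY1 share the GPI anchor. Of the 25 genes of anchor synthesis, 0 were more than 1.5-fold higher or lower, against 7.64% and 9.36% of all genes. Their median was -0.02 and their sum 750 CPM in control and 758 in TGF-β1. Their ratios were between -0.31 (*PIGQ*) and 0.30 (*PGAP1*). Other GPI-anchored proteins went both ways: of 15 genes, 6 were more than 1.5-fold higher and 4 lower, against 7.64% and 9.36% of all genes, with a median of 0.29. *GAS1*, a growth arrest protein and hedgehog co-receptor, was at 56.6 CPM in control and 21.8 in TGF-β1, a ratio of -1.38 that is near that of *THY1*, and *LY6E* was at 163 and 92.5 CPM, whereas *PLAUR*, the urokinase receptor, was at 138 and 244.

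Of 20 genes for ligands and receptors that act with heparan sulfate or glypicans, a list that also holds the hedgehog target *GLI1*, 3 were more than 1.5-fold higher and 6 lower, against 7.64% and 9.36% of all genes, with a median of -0.03. *HBEGF*, a heparin-binding ligand of the EGF receptor, was at 16.5 CPM in control and 55.5 in TGF-β1, a ratio of 1.75. *IGF2* was at 18.7 and 4.73 CPM, a ratio of -1.98, and the guidance ligand *SLIT3* was at 217 and 67.5 CPM, a ratio of -1.68. Of the 12 partners of THY1, 3 were more than 1.5-fold higher and 1 lower, against 7.64% and 9.36% of all genes. The 3 with the largest ratios were integrin subunits, *ITGB3* at 6.31 and 16.6 CPM (1.39), *ITGA5* at 63.0 and 126 (1.00) and *ITGB5* at 69.7 and 122 (0.81).

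Of 8 mesenchymal surface markers, 1 was more than 1.5-fold higher and 2 were lower, against 7.64% and 9.36% of all genes, with a median of -0.10. *FAP*, the fibroblast activation protein, was at 67.9 CPM in control and 211 in TGF-β1, a ratio of 1.63, whereas *PDGFRA* was at 50.5 and 16.7 CPM, a ratio of -1.60, and *PDGFRB* at 80.1 and 49.0, a ratio of -0.71. Of 8 other proteoglycans of the surface and basement membrane, 0 were more than 1.5-fold higher and 2 were lower, against 7.64% and 9.36% of all genes, with a median of 0.03. The 2 lower genes, named after their values were seen, were *TGFBR3* (betaglycan), a TGF-β co-receptor that was at 7.85 CPM in control and 1.88 in TGF-β1, a ratio of -2.06 (-2.22 to -1.91), and agrin (*AGRN*), at 6.87 and 4.201 CPM, a ratio of -0.71. *COL18A1* was at 111 and 120 CPM, the neuropilin *NRP1* at 94.9 and 103, and perlecan (*HSPG2*) at 29.7 and 30.8. The glypicans outside the chosen set were rare, *GPC2* with 1.13 CPM in control and 0.95 in TGF-β1 and *GPC5* with 0.15 and 0.22.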

How the data were processed

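For each of 2 libraries the authors deposited counts of UMIs for each gene and barcode, made with Cell Ranger (7.1.0 in the methods, 8.0.1 in the file header) against EquCab3.0 with the Ensembl annotation. They were whole numbers without normalization, one entry per gene and barcode called as a cell. Whether intronic reads were counted is not given in the sources used here. Cells treated with MFGE8 are not analysed here.

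Cells with at least 20000 UMIs, 3500 genes and under 4% of UMIs on genes with the prefix MT- were kept. UMIs were summed per library and scaled to CPM in Python 3.11.15 (numpy 2.4.6, scipy 1.17.1, pandas 2.3.3). The totals of 210497250 and 219731144 UMIs make counting intervals narrow, and intervals (Clopper-Pearson for shares and ratios, Poisson for levels) leave out the spread between mares. Those of levels and ratios also leave out the spread between cells. No pseudocount was used for ratios, and none is given with 3 or fewer UMIs in either group. Cells were thinned to 20000 UMIs for shares and co-detection. Clusters were built in Seurat 5.3.0 (R 4.3.3) with log normalization, 1998 variable genes after removal of the members, 30 dimensions, canonical correlation integration and resolution 0.5. Only clusters with at least 50 cells per library were used. The study's doublet and mare calls rest on the reads and were not repeated. Scrublet (scanpy 1.11.5) served only as an alternative. Figures were drawn in matplotlib 3.10.9.

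Members and lists were chosen with earlier results of these data known. Named were all members, up to 3 genes per list with the largest absolute ratio at a mean of at least 10 CPM, the 3 genes most parallel to each member of at least 10 CPM over cluster sums, and the markers *KRT8*, *VIM* and *COL1A1*. The other markers, the genes that lead a cluster, *TGFBR3*, *AGRN*, *PGAP1*, *MMP9*, *TIAM1* and *GLI1* were named after their values were seen. Lists count genes that averaged at least 1 CPM. Groups came from the labels. With 1 library per group no test was made. The study's edgeR analysis rests on mares told apart in the reads and was not run. The interval functions were tested on simulated library sums drawn from a Poisson distribution, which does not check them against the spread between cells. The alternatives were other cell filters, doublet removal, scalings (TMM factors from edgeR 4.0.16, median of ratios), a thinning depth of 10000, other cluster resolutions and no integration.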

Additional observations from a re-analysis of the deposited data

Results flagged for a closer look

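*GPC6* in rebuilt cluster 5, led by *CFD*, *CRABP2* and *SOD3*, had a log2 ratio of -0.35 (-0.68 to -0.02), from 184 control and 134 TGF-β1 UMIs, while its interval lay above 0 in 6 of the other clusters. *GPC4* in cluster 2, led by *ALDH2*, *CALCA* and *NR4A3*, had a ratio of -0.26 (-0.48 to -0.04), from 411 and 279 UMIs, while its interval lay above 0 in 3 clusters, with 0.28 in cluster 0, 0.21 in cluster 3 and 0.26 in cluster 4. Both are listed because the direction was opposite to that in other clusters beyond counting error, which leaves out the spread between cells. At cluster resolutions of 0.3 and 0.8 neither gene had an interval below 0 in any cluster. With 1 library per group the difference between clusters was not tested.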

How the results depend on the processing

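No paired analysis was possible because the counts do not tell apart the mares pooled in each library, and with 1 library per group none could be left out. Under each of the 14 alternatives for which they were counted, 0 members were past 1.5-fold higher and 2 past 1.5-fold and 2-fold lower. Over the 12 of these that recomputed the ratios, no member's ratio changed direction. The log2 ratio was between -1.56 and -1.50 for *SDC4*, -1.33 and -1.28 for *THY1*, -0.40 and -0.34 for *SDC2*, -0.40 and -0.35 for *GPC1*, 0.06 and 0.11 for *GPC4*, 0.13 and 0.20 for *SDC1* and 0.21 and 0.35 for *GPC6*, lowest without cells that had a *KRT8* UMI. The median of all genes stayed between -0.02 and 0.01. Without integration, 1 cluster held at least 50 cells of each library, with ratios of -1.002 for *THY1*, -1.32 for *SDC4*, 0.34 for *GPC6*, -0.07 for *SDC2*, -0.25 for *GPC1*, -0.10 for *GPC4* and 0.11 for *SDC1*, and intervals that included 0 for the last 4. At resolutions of 0.3 and 0.8 *SDC4* and *THY1* were lower in all 6 and all 11 clusters, and *GPC6* was higher in 6 of 6 and 8 of 11. At a thinning depth of 10000 UMIs, 5 of the 42 co-detection ratios left the interval of the reported value, among them *SDC1* and *GPC4* in control at 0.916 and *SDC4* and *GPC4* in TGF-β1 at 0.708 instead of 0.938. Shares of cells depend on depth, as the unthinned values show. Depth limits *GPC3*, with 42 and 30 UMIs.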

Other observations

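Cells with at least 5 thinned *GPC6* UMIs were compared with cells without one, over genes chosen after their values were seen. Of 7207 genes, 9 were more than 2-fold higher and 1 was more than 2-fold lower in the *GPC6*-high cells of both libraries, on the log2(CPM + 1) scale. The guanylate cyclase subunit *GUCY1A2* was at 22.0 CPM in cells without *GPC6* and 67.2 in *GPC6*-high cells in control, and at 13.4 and 39.6 in TGF-β1. The fibrillar collagen gene *COL11A1* was at 27.2 and 63.3 CPM in control and 31.1 and 69.0 in TGF-β1, and *HMCN1*, a hemicentin, at 28.5 and 82.1 and at 64.0 and 139. In the other direction, *KRT8* was at 130 and 50.1 CPM in control and 8.49 and 2.58 in TGF-β1, *LGALS3*, a galectin, at 685 and 408 and at 253 and 145, and *CFD*, complement factor D, at 333 and 160 and at 37.3 and 22.2.

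The 519 control and 611 TGF-β1 barcodes outside the filters had medians of 3728 and 6107 UMIs and of 3.23% and 10.2% mitochondrial UMIs. Their *GPC6* level was 243 CPM in control and 294 in TGF-β1, above the 97.4 and 122 CPM of kept cells, although *GPC6* was lower in the shallower kept cells. Of the 7 genes with at least 1 CPM, all but *THY1* were higher in these barcodes than in kept cells of the same library, with *GPC1* at 48.6 and 34.8 CPM, *SDC2* at 148 and 108, *SDC1* at 16.4 and 13.0 and *GPC4* at 15.3 and 18.4. *THY1* was at 181 and 70.2 CPM, a log2 ratio of -1.36 (-1.56 to -1.17), and *SDC4* at 44.1 and 18.8, a ratio of -1.23 (-1.62 to -0.84).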
